A study of Homo sapiens with 6 samples.

Results

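Described here are 42 genes that fold, oxidise and dispose of proteins in the endoplasmic reticulum (ER) or that sense unfolded proteins there, as read in cells transfected with an siRNA against RNF43 or with a control siRNA. The genes were listed by name, as ER chaperones, members of the unfolded protein response and members of ER-associated degradation (ERAD), by function and not by a threshold on the measured values, though with earlier results of these data known. On the array 39 of the 42 had a probe set that names 1 gene, among 19775 genes in all, and all 39 were bright enough to be tested. For the other 3, PDIA5, TXNDC5 and SYVN1, the probe sets name several genes, and they were not analysed here.

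Proteins that enter the secretory pathway fold in the ER lumen with the help of the HSP70 chaperone BiP and its J-domain co-chaperones, of the lectins calnexin and calreticulin, and of protein disulfide isomerases that ERO1 oxidases keep charged. When unfolded proteins build up, the membrane sensors IRE1, ATF6 and PERK respond. IRE1 splices the mRNA of the transcription factor XBP1, ATF6 is cut in the Golgi to free a transcription factor, and PERK phosphorylates eIF2 alpha and so favours translation of ATF4. Chaperone and ERAD genes are known targets of the first 2 arms, and many carry the ER stress response element (ERSE) in their promoters. ERAD passes misfolded proteins through the HRD1 complex to the cytosol, where the ATPase p97 extracts them for the proteasome. Hepatocyte-like cells secrete large amounts of protein and depend on this machinery. None of the 3 activation steps is read by a probe set for the total mRNA of a gene.

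The cells are labelled HepG2, a line derived from a human liver tumour. They were grown in one medium, transfected with Lipofectamine 2000 and harvested 48 h later, and 6 µg of total RNA per sample was hybridised to HG-U133 Plus 2.0 arrays, with 3 arrays for the negative control siRNA and 3 for the RNF43 siRNA. The labels give 1 siRNA against RNF43, and they call the arrays of a group biological replicates without saying that separate cultures were used. P-values therefore measure the spread between these arrays, which may be partly technical.

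RNF43, the targeted ubiquitin ligase, had only 1 probe set that names it alone. RNF43 read 7.65, 7.79 and 7.45 on the log2 scale in the control and 8.19, 8.22 and 8.41 on the arrays labelled RNF43 siRNA. It was thus 1.56-fold higher, not lower, where its siRNA was named (limma adjusted p = 0.0098; exact two-sided permutation p = 0.1, the smallest that 3 against 3 arrays allow), and every direction below is that of the labels. Liver cell markers went against the label HepG2 too. Of 14 hepatocyte markers measured, 12 lay below the filter on low signals (log2 5.83), the plasma protein genes ALB, APOA1, TTR and FGB among them, and 0 of the 14 were listed at 0 on all arrays. AFP and RBP4 lay above it, and the summed linear signal of the 14 was 1867 to 2292 in the control and 2432 to 2892 on the other arrays. Of 10 fibroblast and stellate cell markers, 6 lay above it, with LUM at a mean log2 signal of 13.26. The summed linear signal of these 10 markers was 15944 to 16062 on the control arrays and 12509 to 13642 on the others, and 4 of the 6 tested were lower, so they moved in the same direction as most of the ER genes. Leukocyte markers lay below the filter in 7 of 7 cases and endothelial markers in 5 of 6. The part of these markers in the results was not tested. The cells are called by their label below, and fewer cells of one kind and less RNA per cell cannot be told apart in RNA from whole cultures.

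On the arrays labelled RNF43 siRNA, ER folding and ERAD genes leaned towards lower signals. Of the 39 tested, 16 fell, 2 rose and 21 did not pass (limma, adjusted p under 0.05 over all 11853 genes tested). Among all genes tested 11.1% fell and 11.5% rose, whereas 41.0% of the 39 fell and 5.13% rose. The 39 are mostly bright, 37 of them at least 2 log2 units above the filter, whereas all genes tested reach down to it. With the upper 30% of probe sets, 16 of 37 of these genes fell and 1 rose, against 1231 and 1313 of all 8816 tested. The 16 falls in the main fit were of modest size, from 1.21-fold for DNAJC10 to 1.80-fold for EDEM3, with a median of 1.35-fold. The 2 rises stood beside falls in related genes. ERO1B, an ER oxidase, rose 2.55-fold while ERO1A fell 1.26-fold, and DNAJB9, a co-chaperone of BiP, rose 1.54-fold while, of the 4 other J-domain genes, DNAJC3 and DNAJC10 fell and DNAJB11 and DNAJC1 did not pass. Over the 39 genes the median log2 difference was -0.28, against 0.00 over all genes tested. In 17 of the 39 genes all 3 arrays labelled RNF43 siRNA lay below all 3 control arrays, as did 19.8% of all genes tested, and in 3 they lay above, as did 19.1%.

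**Figure D1:**
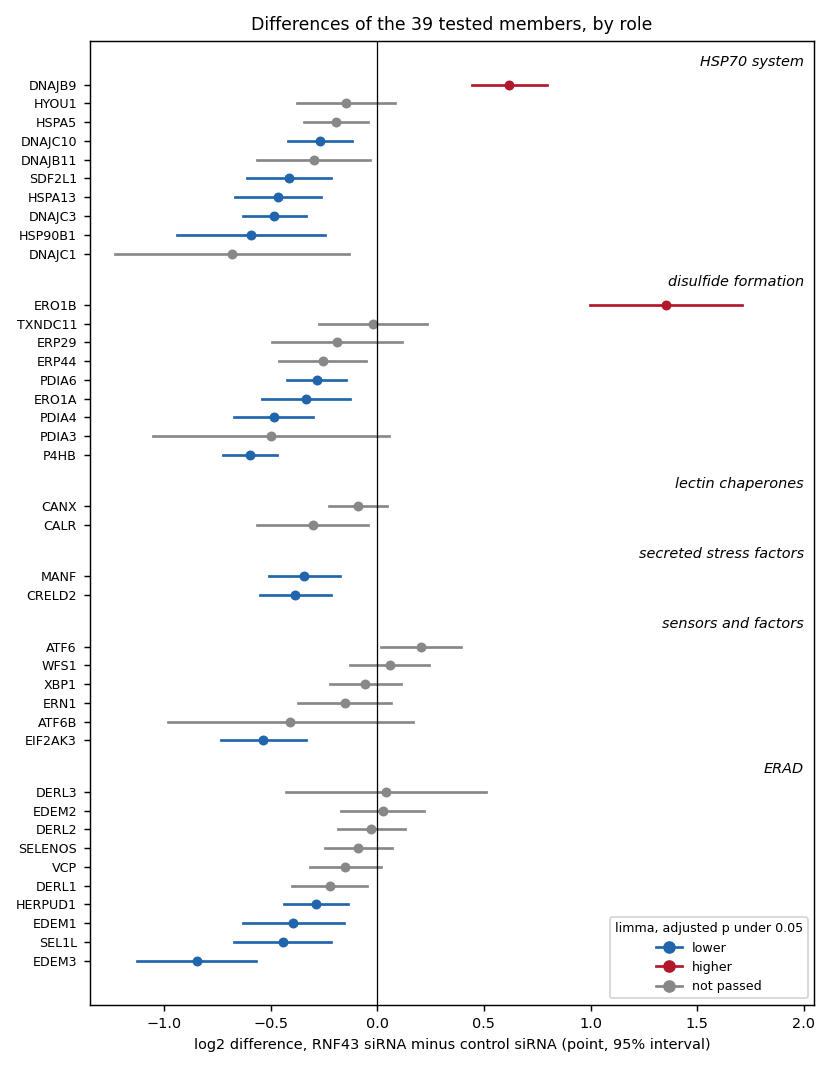
Log2 difference between arrays labelled RNF43 siRNA and control arrays (horizontal axis, point with 95% interval from limma) for each of the 39 tested genes, in blocks by role. Blue genes passed as lower (16), red as higher (2) and grey did not pass (21); ERO1B and DNAJB9 stand alone on the right.

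Promoter sequences are shown first because the ERSE is the element through which ATF6 and XBP1 are known to act on many of these genes. The element was described in part on genes of this list, HSPA5, HSP90B1 and CALR among them, so its share here is no independent result. The ERSE is written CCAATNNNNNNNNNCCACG and its shorter form, ERSE-II, ATTGGNCCACG. Both were searched on either strand in windows of 250 bases before to 50 bases after the start site, taken from RefSeq (GRCh38.p14), which held 38 of the 42 genes. An ERSE was found in 8 of the 38 (21.1%), against 25 of 27305 genes with a promoter (0.0916%), and an ERSE-II in 3 (7.89%), against 19 (0.0696%). A gene with several start sites counted once if any of its windows held a match. One or the other form stood in 5 of the 16 genes that fell (31.2%), in 1 of the 2 that rose and in 5 of the 17 with a promoter that did not pass (29.4%), and whether these shares differ was not tested. The 6 changed genes with a match are printed below from 250 bases before the start site to the base before it, 5′ to 3′ on the gene's strand, with the matches in capitals. A match on the opposite strand reads as its reverse complement, and of the 2 start sites that RefSeq lists for PDIA6, the one with the match is shown.
ERO1B, chr1:236281959-236282208, minus strand: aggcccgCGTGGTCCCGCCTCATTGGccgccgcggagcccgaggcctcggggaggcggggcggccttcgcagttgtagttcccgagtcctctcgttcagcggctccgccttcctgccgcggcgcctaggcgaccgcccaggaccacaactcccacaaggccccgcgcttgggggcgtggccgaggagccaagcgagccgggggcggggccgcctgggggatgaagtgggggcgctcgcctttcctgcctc
CRELD2, chr22:49918384-49918633, plus strand: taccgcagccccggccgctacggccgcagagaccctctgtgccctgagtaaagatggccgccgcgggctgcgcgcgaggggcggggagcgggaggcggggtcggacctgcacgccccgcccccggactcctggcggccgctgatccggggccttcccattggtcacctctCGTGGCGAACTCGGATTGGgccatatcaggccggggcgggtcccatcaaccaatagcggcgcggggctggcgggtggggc
SDF2L1, chr22:21642052-21642301, plus strand: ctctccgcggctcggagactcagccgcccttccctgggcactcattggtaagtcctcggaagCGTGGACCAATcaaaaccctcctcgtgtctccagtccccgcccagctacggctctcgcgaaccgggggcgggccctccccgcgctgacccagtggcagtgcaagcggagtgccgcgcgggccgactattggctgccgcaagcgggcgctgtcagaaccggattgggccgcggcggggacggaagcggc
PDIA6, chr2:10812786-10813035, minus strand: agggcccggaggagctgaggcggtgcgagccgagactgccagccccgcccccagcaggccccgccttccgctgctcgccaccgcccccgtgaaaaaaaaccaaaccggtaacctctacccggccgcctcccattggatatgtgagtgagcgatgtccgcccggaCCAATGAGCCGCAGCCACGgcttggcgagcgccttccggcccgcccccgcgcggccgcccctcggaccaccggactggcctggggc
HERPUD1, chr16:56931892-56932141, plus strand: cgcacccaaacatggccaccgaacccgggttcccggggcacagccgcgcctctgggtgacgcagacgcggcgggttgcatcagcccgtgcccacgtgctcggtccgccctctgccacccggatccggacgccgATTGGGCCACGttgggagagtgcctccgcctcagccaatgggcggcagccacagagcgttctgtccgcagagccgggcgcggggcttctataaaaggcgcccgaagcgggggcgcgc
HSP90B1, chr12:103930160-103930409, plus strand: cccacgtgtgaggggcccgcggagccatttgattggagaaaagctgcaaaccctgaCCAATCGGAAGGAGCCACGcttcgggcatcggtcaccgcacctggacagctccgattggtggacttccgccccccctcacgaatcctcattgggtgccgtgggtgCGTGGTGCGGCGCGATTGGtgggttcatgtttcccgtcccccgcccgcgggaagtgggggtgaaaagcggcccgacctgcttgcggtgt

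HSP90B1 held 2 matches, 1 on each strand, and the other 5 held 1 each. ERO1B, which rose, carried its match furthest from the start site, 243 bases upstream. The match lay on the opposite strand, as did those of CRELD2 and SDF2L1, which fell. Among genes that did not pass, HSPA5 carried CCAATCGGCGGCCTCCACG 66 bases upstream, XBP1 carried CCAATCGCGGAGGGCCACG 52 bases upstream, and HYOU1 carried ATTGGACCACG at 2 places. CALR and CANX made up the rest. DNAJB9, the other gene that rose, had neither form in this window. The related UPRE, TGACGTGG, was found in 5 of the 38 genes (13.2%), those of HYOU1, DNAJC10, TXNDC5, TXNDC11 and VCP, against 0.927% of all genes with a promoter. In HYOU1 it overlaps an ERSE-II match, and in TXNDC11 it lies after the start site. Matches are descriptions of letters and not evidence of binding.

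In the HSP70 system 5 of 10 genes fell and 1 rose (median 1.28-fold lower). HSPA5, which encodes BiP, read 14.46, 14.54 and 14.65 on the control arrays and 14.33, 14.30 and 14.43 on the arrays labelled RNF43 siRNA. The groups did not overlap, but the log2 difference of -0.19 (95% interval -0.34 to -0.05) did not pass (adjusted p = 0.0633), and its dimmer probe set pointed the other way (0.23, adjusted p = 0.108). HSP90B1, the ER paralogue of HSP90, read 13.15, 13.10 and 12.55 against 12.56, 12.10 and 12.36, on a probe set whose suffix _x_at marks probes that may also match other transcripts. Control replicate 3 lay at the level of the highest array of the other group, so the groups overlapped. HSP90B1 passed as 1.51-fold lower (log2 difference -0.59, SE 0.16, adjusted p = 0.0203), a call that was lost without control replicate 1 (-0.48, adjusted p = 0.0793), without control replicate 2 (-0.51, 0.0759) and without RNF43 siRNA replicate 2 (-0.47, 0.0924).

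HSPA13, an HSP70-like ATPase of the ER, read 10.97, 11.12 and 11.26 in the control and 10.64, 10.56 and 10.74 after RNF43 siRNA by label. The groups were separate and the fall was 1.38-fold (log2 difference -0.47, SE 0.09, adjusted p = 0.00467). SDF2L1, a partner of the co-chaperone ERdj3, read 10.48, 10.70 and 10.49 against 10.07, 10.12 and 10.23. It fell 1.33-fold with no overlap (SE 0.09, adjusted p = 0.0079). HYOU1, the nucleotide exchange factor of BiP, had a log2 difference of -0.15 with a 95% interval of -0.38 to 0.08 and did not pass (adjusted p = 0.357).

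The 5 J-domain genes split, with 2 lower, 1 higher and 2 that did not pass. DNAJC3, a co-chaperone that also inhibits PERK, was tightly grouped at 12.12, 12.19 and 12.12 in the control and 11.66, 11.72 and 11.59 in the other group. Its fall of 1.40-fold (log2 difference -0.48, SE 0.07, adjusted p = 6.62e-04) was seen on each of its 3 other probe sets, at 1.52-fold, 1.64-fold and 2.09-fold. DNAJC10, a J-domain reductase that breaks disulfide bonds, read 11.65, 11.75 and 11.78 against 11.47, 11.46 and 11.43 (1.21-fold lower, SE 0.07, adjusted p = 0.0157). Its call was lost without control replicate 2 (log2 difference -0.26, adjusted p = 0.0633) and without RNF43 siRNA replicate 2 (-0.28, adjusted p = 0.051), while 2 of its 3 other tested probe sets fell by 1.40-fold and 1.42-fold and 1 did not pass.

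DNAJB9, whose product ERdj4 delivers BiP to IRE1 and to ERAD clients, went the other way. Its signals were 10.30, 10.37 and 10.52 in the control and 11.04, 10.97 and 11.04 on the arrays labelled RNF43 siRNA, with a gap between the groups wider than the range within either. The rise of 1.54-fold (log2 difference 0.62, SE 0.08, adjusted p = 4.25e-04) was matched by its other probe sets, at 1.46-fold and 1.48-fold, both past the threshold. DNAJB11, the ERdj3 gene, had a log2 difference of -0.30 (95% interval -0.56 to -0.03, adjusted p = 0.103), and passed without control replicate 3 (-0.42, adjusted p = 0.0172). DNAJC1, a membrane J-domain protein, read 10.79, 10.92 and 9.78 in the control and 10.01, 9.88 and 9.56 in the other group. Control replicate 3 alone of its group lay among the lower values, and replicate 3 was the lowest array in both groups. Without control replicate 3 the log2 difference moved from -0.68 (adjusted p = 0.0754) to -1.04 (adjusted p = 3.12e-04). With all arrays DNAJC1 passed when the replicate number was a block in the fit (adjusted p = 5.65e-04). It also passed with averaged probe sets (0.0262) and without probe sets ending in _x_at or _s_at (0.015). The count of 5 falls in the HSP70 system was 3 without control replicate 2 and 3 without RNF43 siRNA replicate 2.

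**Figure D2:**
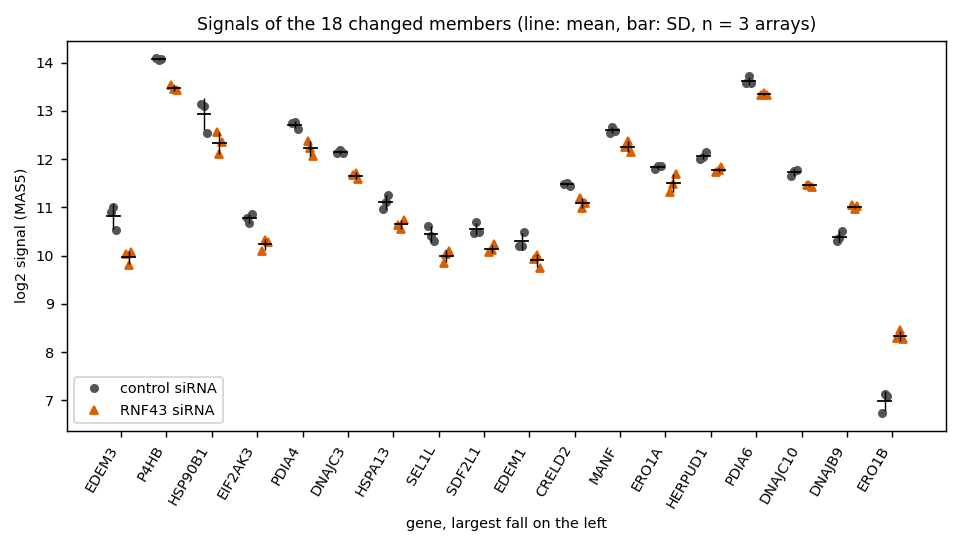
MAS5 log2 signal (vertical axis) of the 18 genes that passed, on the 3 control arrays (grey circles) and the 3 arrays labelled RNF43 siRNA (orange triangles), with the mean (line) and SD (bar). The groups are separate for 15 of the 16 genes that fell and for both that rose, with the overlap in HSP90B1. These genes passed a test on the same arrays, so separate groups follow largely from that choice and are no further support. Among all genes tested, all arrays labelled RNF43 siRNA lay below all control arrays in 19.8% and above them in 19.1%. Levels of different genes come from different probes and are not to be compared.

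Disulfide formation showed the same mix, with 4 of 9 genes lower and 1 higher (median 1.22-fold lower). P4HB, the classical protein disulfide isomerase and also a subunit of prolyl 4-hydroxylase, had the smallest p of the 39 genes. It read 14.09, 14.06 and 14.07 in the control and 13.54, 13.46 and 13.44 on the arrays labelled RNF43 siRNA, far apart relative to the spread. The fall of 1.51-fold (log2 difference -0.60, SE 0.06, adjusted p = 7.12e-05) recurred on both other probe sets (log2 differences -0.63 and -0.61). PDIA4, the ERp72 isomerase, read 12.74, 12.77 and 12.63 against 12.38, 12.23 and 12.07. It fell 1.40-fold without overlap (SE 0.08, adjusted p = 0.00246) and by 1.47-fold on its second probe set. PDIA6, the P5 isomerase, read 13.58, 13.72 and 13.58 against 13.34, 13.37 and 13.32 (1.22-fold lower, SE 0.06, adjusted p = 0.00887), and narrowly missed the threshold without control replicate 2 (log2 difference -0.24, adjusted p = 0.0517).

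PDIA3, the isomerase that serves calnexin and calreticulin, differed widely between arrays of one group, and replicate 3 was the highest array in both groups. It read 11.72, 11.53 and 11.90 in the control and 10.89, 10.79 and 11.97 in the other group, so RNF43 siRNA replicate 3 lay above every control array. With all arrays the log2 difference of -0.50 (95% interval -1.05 to 0.05) did not pass (adjusted p = 0.185). Without RNF43 siRNA replicate 3 it was -0.87 (adjusted p = 4.99e-04). With all arrays and the replicate number as a block in the fit, PDIA3 also passed (adjusted p = 0.00662). A second probe set of PDIA3 fell 1.19-fold with all arrays in place (adjusted p = 0.0442), and its remaining probe set read 0.09 (adjusted p = 0.559). ERP29, a thioredoxin-fold protein, followed the same arrays at 11.86, 11.77 and 12.02 in the control and 11.48, 11.53 and 12.07 after the RNF43 siRNA. Its log2 difference moved from -0.19 (adjusted p = 0.365) to -0.38 (adjusted p = 0.0126) without RNF43 siRNA replicate 3. With the block ERP29 did not pass.

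The oxidases that recharge these isomerases moved apart. ERO1A read 11.79, 11.86 and 11.86 in the control and 11.32, 11.49 and 11.70 in the other group, all lower. This was a fall of 1.26-fold (SE 0.09, adjusted p = 0.0265) on its brightest probe set, lost without any 1 of 4 arrays, namely control replicate 1 (log2 difference -0.36, adjusted p = 0.0578), control replicate 2 (-0.32, 0.0813), RNF43 siRNA replicate 1 (-0.24, 0.0885) and RNF43 siRNA replicate 2 (-0.33, 0.0859). The other ERO1A probe sets showed larger falls with wider gaps, 1.71-fold (adjusted p = 5.45e-04) and 1.66-fold (adjusted p = 0.00983). ERO1B, the oxidase best known from pancreas and other secretory cells, was dim in the control at 6.74, 7.13 and 7.09 and read 8.28, 8.45 and 8.28 on the arrays labelled RNF43 siRNA. This was the largest change of the 39 genes, 2.55-fold higher with a 95% interval of 1.99 to 3.27 (log2 difference 1.35, SE 0.16, adjusted p = 2.57e-04). Its second, dimmer probe set read 1.63-fold higher and did not pass (adjusted p = 0.150).

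ERP44, which returns escaped oxidases from the Golgi, had a log2 difference of -0.26 (95% interval -0.46 to -0.05, adjusted p = 0.0718) and passed without control replicate 3 (-0.35, adjusted p = 0.0139). A dimmer ERP44 probe set pointed the other way, without overlap of the groups, and did not pass either (0.28, adjusted p = 0.303). For TXNDC11, a membrane thioredoxin protein, the difference was -0.02 with an interval of -0.28 to 0.23. The count of 4 falls in this block was 2 without control replicate 2.

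**Figure D3:**
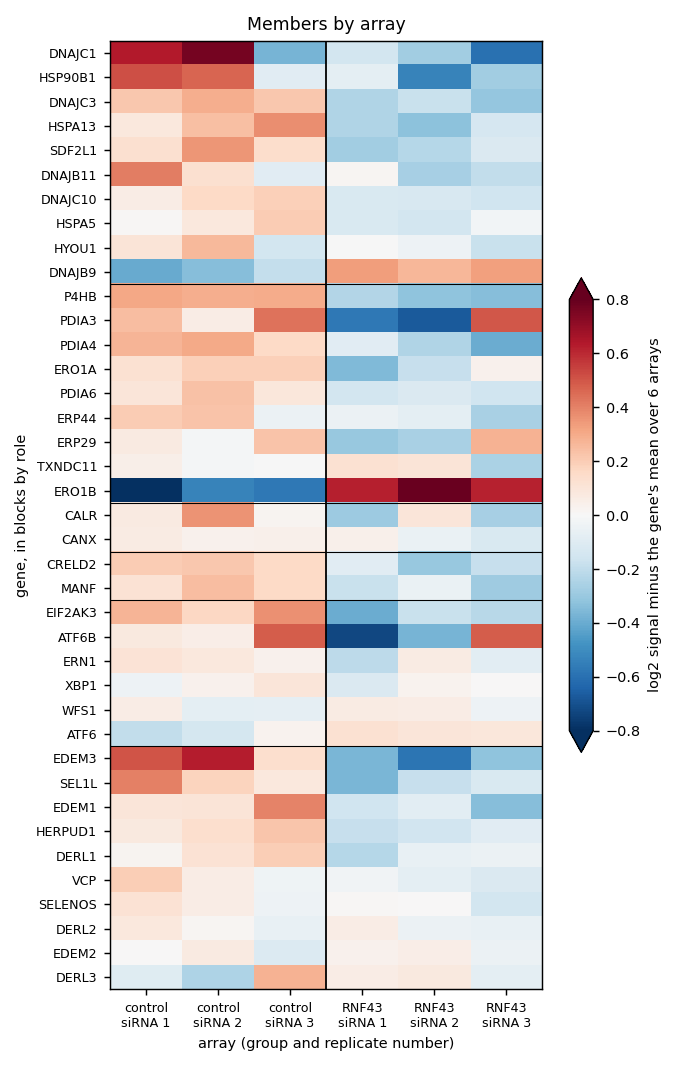
Log2 signal minus the gene's own mean over the 6 arrays (colour), for the 39 genes (rows, in blocks by role) on each array (columns). Most rows are red on the left and blue on the right, with DNAJB9 and ERO1B the reverse; PDIA3, ERP29 and ATF6B stand out on RNF43 siRNA replicate 3, and DNAJC1 and HSP90B1 on control replicate 3.

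Neither lectin chaperone passed on its brightest probe set. CALR, calreticulin, had a log2 difference of -0.30 (95% interval -0.56 to -0.04, adjusted p = 0.0926) and passed without RNF43 siRNA replicate 2 (-0.43, adjusted p = 0.0298). CANX, calnexin, had one of -0.09 (-0.23 to 0.04, adjusted p = 0.326), but its probe sets did not speak with one voice. One fell 1.25-fold (adjusted p = 0.034). The dimmest of its 4 tested probe sets read 8.73, 8.69 and 8.62 on the control arrays and 10.27, 10.54 and 10.47 on the others, a rise of 3.37-fold (log2 difference 1.75, SE 0.10, adjusted p = 2.45e-05). Where these probe sets lie in CANX transcripts was not analysed here.

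The secreted stress factors CRELD2 and MANF, which are retained in the ER and released when it is stressed, both fell. CRELD2 read 11.49, 11.50 and 11.44 in the control and 11.19, 10.98 and 11.10 in the other group (1.31-fold lower, SE 0.07, adjusted p = 0.00462). MANF read 12.54, 12.67 and 12.59 against 12.25, 12.37 and 12.14 (1.27-fold lower, SE 0.08, adjusted p = 0.00858). Neither gene's groups overlapped, and both calls held without any 1 array.

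Among the sensors, the PERK gene alone passed. EIF2AK3, which encodes PERK, read 10.77, 10.67 and 10.87 in the control and 10.11, 10.33 and 10.28 on the arrays labelled RNF43 siRNA. The groups were separate and the fall was 1.45-fold (log2 difference -0.53, SE 0.09, adjusted p = 0.00207), and it held without any 1 array. Its other probe set had a mean log2 signal of 3.13, below the filter, and the call was lost when both were averaged (-0.47, adjusted p = 0.553).

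ERN1, which encodes IRE1, read 9.47, 9.44 and 9.39 against 9.15, 9.42 and 9.27. The log2 difference of -0.15 had a 95% interval of -0.37 to 0.06 (adjusted p = 0.303). Its product's substrate XBP1 read 11.12, 11.20 and 11.26 against 11.05, 11.20 and 11.17, with overlapping groups. The XBP1 difference was -0.06 with an interval of -0.22 to 0.11 (adjusted p = 0.635), and whether the probe set tells spliced from unspliced forms was not analysed here. A second, dimmer XBP1 probe set had all 3 arrays labelled RNF43 siRNA below all control arrays and did not pass either (log2 difference -0.62, SE 0.22, adjusted p = 0.0965).

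ATF6 read 9.82, 9.88 and 10.04 against 10.14, 10.12 and 10.11. All 3 arrays labelled RNF43 siRNA were higher, yet the difference of 0.20 (0.01 to 0.39) did not pass (adjusted p = 0.117), and narrowly passed without control replicate 3 (0.27, adjusted p = 0.0471). Another ATF6 probe set read -0.60 (adjusted p = 0.0987). ATF6B, its relative, read 8.61, 8.58 and 9.01 in the control and 7.81, 8.16 and 9.02 in the other group, where replicate 3 again stood at the control level. The ATF6B difference of -0.41 (-0.98 to 0.17, adjusted p = 0.297) became -0.75 without that array (adjusted p = 0.0131). Control replicate 3 was likewise the highest control array, and with the replicate number as a block ATF6B passed on all arrays (adjusted p = 0.0449). WFS1, an ER membrane protein, had a difference of 0.06 (-0.13 to 0.24). The count of sensors and factors that fell was 1 of 6, and 2 without RNF43 siRNA replicate 3.

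In ERAD 4 of 10 genes fell and 0 rose (median 1.14-fold lower). The falls were 2 of 10 when a gene's probe sets were averaged. They were 1 of 6 once probe sets with the suffix _x_at or _s_at were dropped, with a median log2 difference of -0.04. EDEM3, a mannosidase that marks glycoproteins for disposal, showed the largest fall of the 39 genes. It read 10.89, 11.02 and 10.53 in the control and 10.02, 9.81 and 10.07 in the other group, without overlap. The fall was 1.80-fold (log2 difference -0.85, SE 0.13, 95% interval of the fold 1.48 to 2.18, adjusted p = 0.00106), and its other 2 probe sets fell by 0.63 and 0.84 on the log2 scale. EDEM1, a related protein, read 10.19, 10.20 and 10.49 against 9.94, 10.01 and 9.75. Its fall of 1.31-fold (SE 0.11, adjusted p = 0.0229) was lost without control replicate 3 (log2 difference -0.30, adjusted p = 0.0579), RNF43 siRNA replicate 1 (-0.41, 0.0539) or RNF43 siRNA replicate 3 (-0.32, 0.0638). EDEM2, which makes the first mannose cut, differed by 0.02 (95% interval -0.17 to 0.22).

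SEL1L and HERPUD1, parts of the HRD1 complex, fell. SEL1L, the adaptor of the ligase HRD1, read 10.62, 10.40 and 10.31 in the control and 9.86, 10.04 and 10.10 in the other group. The fall of 1.36-fold (SE 0.10, adjusted p = 0.0114) narrowly missed the threshold without control replicate 1 (log2 difference -0.36, adjusted p = 0.0505). HERPUD1, its scaffold and a stress-induced gene, read 12.00, 12.05 and 12.14 against 11.74, 11.77 and 11.83 (1.22-fold lower, SE 0.07, adjusted p = 0.012). HERPUD1 was called without any 1 array, and lost when averaged with a probe set of mean log2 signal 3.44 (-0.44, adjusted p = 0.379).

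The derlins, which help proteins leave the ER, did not pass in 3 of 3 cases. DERL1 was nearest, with a log2 difference of -0.22 (95% interval -0.40 to -0.05, adjusted p = 0.0708) and no overlap. Its other tested probe sets read -0.05 (adjusted p = 0.765) and -0.09 (0.562), with overlapping groups. DERL2 read -0.03 (-0.18 to 0.13), although a dimmer DERL2 probe set rose 1.56-fold (7.61, 7.45 and 8.01 against 8.48, 8.18 and 8.33, adjusted p = 0.0362). DERL3, a relative with a mean signal of 6.91 that lies close to the filter, read 0.04 (-0.43 to 0.51). At the cytosolic end, VCP, which encodes p97, read -0.15 (-0.32 to 0.02, adjusted p = 0.191) and its membrane partner SELENOS -0.09 (-0.25 to 0.07, adjusted p = 0.416).

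Sorted by the sensor they are best known to follow, 8 of 14 genes of the ATF6 arm fell and 0 rose (median log2 difference -0.32), counts that became 5 of 14 when a gene's probe sets were averaged and 4 of 9 once probe sets with the suffix _x_at or _s_at were dropped. Without control replicate 3, 1 gene of this arm, ATF6 itself, rose. The 8 that fell were HSP90B1, SDF2L1, PDIA4, PDIA6, CRELD2, MANF, HERPUD1 and SEL1L. Of the 10 genes placed with IRE1 and XBP1, 3 fell (DNAJC3, EDEM1 and EDEM3) and 1 rose (DNAJB9), with a median of -0.19. The PERK arm held EIF2AK3 and ERO1A, a known target of CHOP, and both fell, though ERO1A was lost without any 1 of the 4 arrays named above. Many of these genes respond to ATF6 and XBP1 alike, so the arms are a textbook sorting, and whether they differ from each other was not tested.

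**Figure D4:**
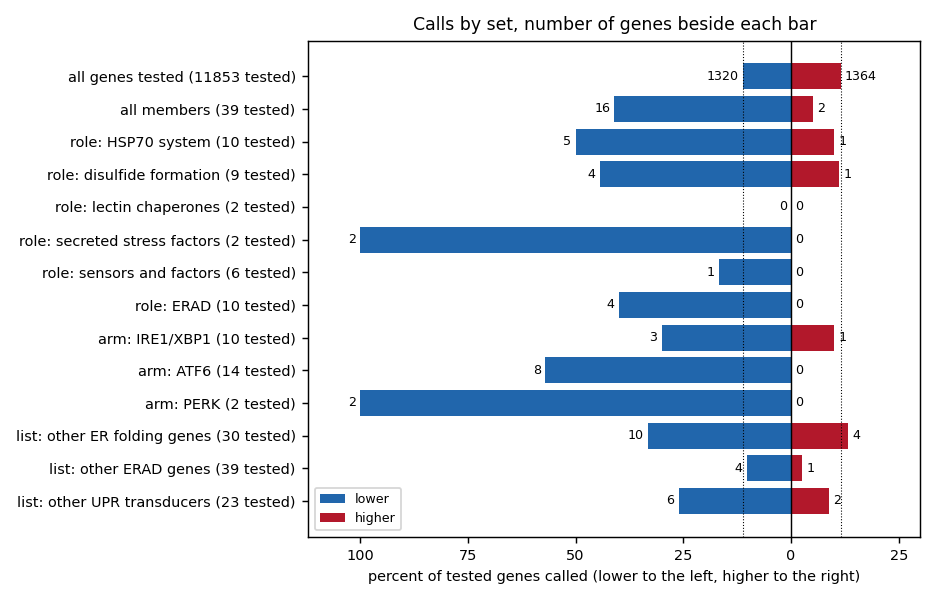
Percent of tested genes called lower (blue, left) or higher (red, right), with the number of genes beside each bar, for all genes tested, the 39 genes, their roles and arms, and 3 lists of related genes. Dotted lines mark the shares among all genes tested, 11.1% and 11.5%.

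The single probe set used for a gene was checked against the rest. Where the brightest probe set had fallen, 20 other tested probe sets of 10 genes gave 16 falls, 0 rises and 4 that did not pass, and 19 of the 20 pointed down (limma over 27306 probe sets). For the 2 genes that rose, 2 of 3 others rose. Genes that had not passed were less uniform, with 3 falls, 2 rises and 19 that did not pass among 24 other probe sets of 15 genes. The falls were in DNAJC1, PDIA3 and CANX and the rises in CANX and DERL2. Averaging a gene's probe sets ended 5 of the falls, those of HSP90B1 (log2 difference -0.50, adjusted p = 0.0803), DNAJC10 (-0.21, 0.242), SEL1L (-0.44, 0.102), EIF2AK3 and HERPUD1. Without an intensity trend in the variance HSP90B1 (adjusted p = 0.0873), ERO1A (0.0856) and EDEM1 (0.0653) did not pass.

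**Figure D5:**
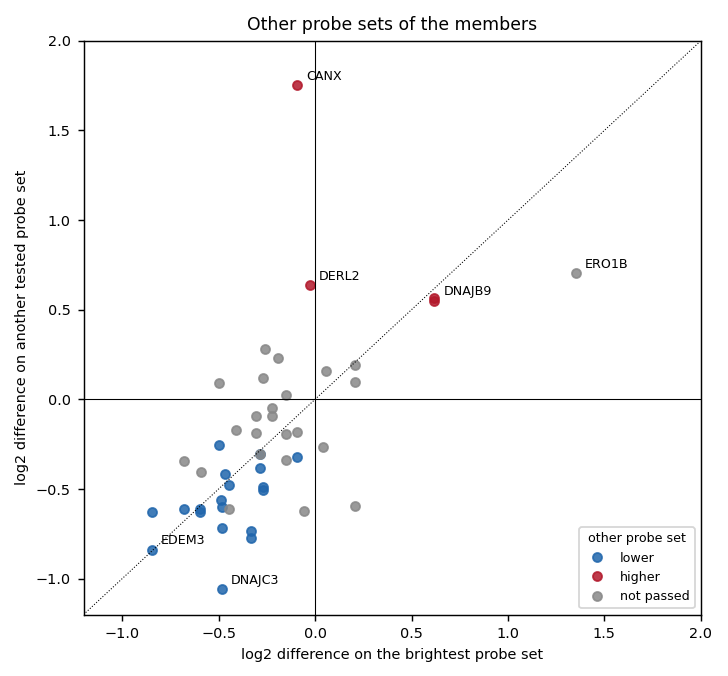
Log2 difference on another tested probe set (vertical axis) against that on the gene's brightest probe set (horizontal axis), coloured by the call of the other probe set; the dotted line marks equality. Most points lie in the lower left, DNAJB9 and ERO1B in the upper right, and a CANX probe set at 1.75 and a DERL2 probe set at 0.64 rise where the brightest did not pass.

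Genes next to these in the same pathways were listed by function rather than by how they moved. Of 30 other ER folding genes tested, 10 fell and 4 rose (median 1.08-fold lower). PRDX4, a peroxidase that feeds disulfide formation, fell 1.74-fold, FKBP7, a prolyl isomerase, 1.90-fold, and LMAN1, a cargo receptor for glycoproteins, 1.47-fold. MCFD2, the partner of LMAN1 in that receptor, rose 2.56-fold, CNPY4 1.91-fold and TXNDC16 1.62-fold. CNPY4 did not pass when its probe sets were averaged (log2 difference 1.15, adjusted p = 0.0854). Without control replicate 1 or without RNF43 siRNA replicate 2 this list gave 6 falls, and with each array centred on its median 5.

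Of 39 other ERAD genes tested, 4 fell and 1 rose, shares of 10.3% and 2.56% that are no higher than those of all genes. ERLEC1, an ER lectin, fell 1.34-fold, ERLIN2, a membrane scaffold, 1.31-fold and UBE2J1, a ubiquitin-conjugating enzyme of ERAD, 1.29-fold. YOD1, a deubiquitinase that works with p97, rose 1.39-fold. The UBE2J1 call rested on its choice of probe set, with a log2 difference of -0.37 on the brightest and 0.23 (adjusted p = 0.213) once probe sets with the suffix _x_at or _s_at were dropped, and it did not pass when its probe sets were averaged (-0.03, adjusted p = 0.873), nor did ERLEC1 (-0.23, adjusted p = 0.604). Without control replicate 3 the list gave 6 falls and 3 rises. With the upper 30% of probe sets it gave 7 falls and 2 rises, and with averaged probe sets 2 and 3.

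Of 23 other transducers of the unfolded protein response, 6 fell and 2 rose, shares of 26.1% and 8.7% against 11.1% and 11.5% of all genes tested. With averaged probe sets this list gave 4 falls and 4 rises (median log2 difference 0.04). Without probe sets ending in _x_at or _s_at, 20 were tested, with 3 falls and 3 rises (median 0.02). ATF4 fell 1.35-fold, DDIT3, which encodes CHOP, 1.71-fold and TRIB3 1.49-fold, while CREB3, a relative of ATF6, fell 1.44-fold. The remaining falls were in CREB3L2 (1.40-fold, adjusted p = 0.00233) and NCK1 (1.31-fold, adjusted p = 0.00316), for which the alternatives were not examined. ATF4, DDIT3 and TRIB3 are known to act downstream of PERK. The eIF2 alpha gene itself, EIF2S1 (log2 difference -0.03, adjusted p = 0.745), did not pass. Nor did the phosphatase subunits PPP1R15A (-0.24, 0.132) and PPP1R15B (0.17, 0.109). The ATF4 call (log2 difference -0.44, adjusted p = 0.0181) was lost without control replicate 1 (-0.44, 0.0514), RNF43 siRNA replicate 1 (-0.40, 0.0612) or RNF43 siRNA replicate 2 (-0.38, 0.0824), and without the intensity trend (adjusted p = 0.0795). The rises were in MAP3K5, a stress kinase downstream of IRE1 (1.40-fold, adjusted p = 0.0363), and NFYB, a subunit of the factor that binds the CCAAT part of the ERSE (1.20-fold, adjusted p = 0.0459). NFYB was lost without any 1 array (adjusted p 0.0654 to 0.117, log2 differences 0.23 to 0.30), and MAP3K5 was lost without control replicate 1 or 3 or RNF43 siRNA replicate 1 or 3 (0.34 to 0.51, adjusted p 0.0549 to 0.129). Neither passed without the filter on low signals, nor without the intensity trend.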

How the data were processed

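The authors deposited 1 log2 signal per probe set for each of 6 arrays. MAS5 is named in the submitters' processing notes; it weighs perfect-match probes against their mismatch partners and brings arrays to one mean. Neither its version nor its scaling target is given in the sources used here. Base 2 was inferred from the values, since linear means trimmed by 2% at each end were 497.03 to 497.23. MAS5 leaves dim probe sets noisy, and scaling hides a shift shared by all transcripts. Median log2 signals were 5.89 to 6.02 over 54613 probe sets, of which 391 to 628 per array lay at the floor of 0. Few arrays limit the precision.

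Probe sets naming 1 gene (41091) were kept, those naming several (1801) or none (11721) were not, and the brightest stood for its gene if its mean over the 6 arrays was above 5.83, the upper 50%. A two-sided limma test (version 3.58.1, R 4.3.3, eBayes with an intensity trend) compared the groups, adjusted by Benjamini-Hochberg over 11853 genes. Errors are SE of the log2 difference. The same steps were checked on simulated data. A planned look at C-terminal residues was not run. Named are all the listed genes and the 3 smallest p in each direction among changed genes of each related list. ATF4, CREB3L2, NCK1, EIF2S1, PPP1R15A and PPP1R15B were named after their values were seen. The genes and lists were chosen with earlier results of these data known. As alternatives, median centring, quantile normalization, a constant added to the signal, other filters, no intensity trend, other choices of probe set, a replicate block and the loss of each array were tried.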

Additional observations from a re-analysis of the deposited data

How the results depend on the processing

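Of the 18 calls among the 39 genes, 10 held in all of the 16 alternatives that tested them, 8 were lost in at least 1 and 0 reversed. The 16 falls and 2 rises became 12 and 2 when a gene's probe sets were averaged, 13 and 2 without an intensity trend, and 16 and 1 with the upper 30% of probe sets, where ERO1B was not tested. Without 1 array the falls ranged from 12 to 18 and the rises from 2 to 3, and over all genes the falls from 868 to 1247 and the rises from 873 to 1409. Averaged probe sets gave 759 falls and 777 rises over all genes, against 1320 and 1364. With the replicate number as a block, falls among the 39 genes came to 24 and rises to 2, and over all genes to 1929 and 1979. The falls gained with the block were those of HSPA5, DNAJB11, DNAJC1, PDIA3, ERP44, CALR, ATF6B and DERL1. The deviations of same-numbered arrays correlated at r = 0.162, 0.0772 and 0.268 over genes, and those of differently numbered arrays at -0.211 to 0.0859. The labels do not say whether same-numbered arrays were handled together, and such a pairing was not tested. Control replicate 2 correlated best with RNF43 siRNA replicate 1, not 2. Without probe sets ending in _x_at or _s_at, 32 of the genes were tested, with 12 falls and 3 rises, and the log2 difference of CANX turned to 1.75 and that of UBE2J1 to 0.23. The median log2 difference over the genes tested lay between -0.31 and -0.23 in all 16 alternatives, and with each array centred on its median it was -0.25 against 0.03 over all genes. Dim probe sets limit ERO1B and DERL3.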
